A study of Mus musculus with 4 samples.

Results

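Pcbp1 peaks were examined at the genes of small structural RNAs, the short non-coding RNAs that build the spliceosome, modify ribosomal RNA, carry amino acids or silence mRNA. A peak was a member when its summit lay within 1 kb of an mm10 RefSeq gene of biotype snRNA, snoRNA, tRNA, rRNA or miRNA. This rule took 350 of the 15626 peaks, 217 of 12132 in the Naive list (1.79%) and 133 of 3494 in the EpiLC list (3.81%). Members were thus selected on the measured summit positions, so their number and distances are a description and were not tested. A member was called hosted when its nearest small RNA gene lay inside a protein-coding or lncRNA gene, and stand-alone otherwise. The hosted peaks numbered 132 in Naive and 96 in EpiLC, and the stand-alone peaks 85 and 37.

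Pcbp1 binds C-rich stretches of RNA and DNA. Its occupancy was read by ChIP-seq, the sequencing of DNA that an antibody pulls down with the protein, in the mouse embryonic stem cell line E14 Tg2a. The study concerns the passage from naive to primed pluripotency. Naive cells were kept for 3 passages in N2B27 medium with LIF, the MEK inhibitor PD0325901 and the GSK3β inhibitor CHIR99021. EpiLC, primed epiblast-like cells, were made from such cells on fibronectin with bFGF, Activin A and 1% KOSR for 48 hours. Each condition had 1 ChIP library and 1 input library, all from this single line. No value below therefore has a replicate, no test between conditions was possible, and the 95% intervals given cover counting error only.

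Genes for small RNAs are read by 2 polymerases. RNA polymerase II makes most spliceosomal snRNAs and U3 and U7 from compact promoters, and it makes miRNAs and most snoRNAs as pieces of longer host transcripts, with the snoRNAs released from host introns. RNA polymerase III makes U6, tRNAs and 5S rRNA. Many hosts of snoRNAs encode ribosomal proteins or are lncRNAs of the Snhg family, and the miR-290 and miR-302 clusters are the best-known miRNAs of naive and primed pluripotent cells.

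The labels were set beside marker genes by peaks whose summits lay within 1 kb of a gene end. Peaks were listed at 5 of 6 naive-state genes in Naive and at 1 in EpiLC (Tbx3), and at 0 of 5 primed-state genes in Naive and 4 in EpiLC (Fgf5, Pou3f1, Dnmt3b and Sall2). Esrrb and Otx2 had none in either list. Over all protein-coding genes the shares with such a peak were 19.3% in Naive and 5.61% in EpiLC. These are Pcbp1 peaks and not expression, so they do not measure the state of the cells. The EpiLC library had the deeper coverage, with a genome-wide background of 7.43 fragments at a position against 4.004 in Naive. Its folds were lower, with a median of 3.41 over all peaks against 4.43. A fold here is the authors' ratio of the fragment pileup at the summit to the local background. A peak missing from a list does not show that Pcbp1 was absent.

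The sequence below is shown because it holds a whole snRNA gene beside a protein-coding start, with the Naive summit inside it and the EpiLC summit just past its end. It is the stretch of 250 bases before the annotated start of the protein-coding gene Grcc10 on the minus strand, chr6:124741070-124741319 in GRCm38.p6 (RefSeq). Capitals mark the annotated interval of Rnu7, the gene of U7 snRNA, which guides the 3′ end cutting of histone mRNAs.

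Rnu7 beside Grcc10: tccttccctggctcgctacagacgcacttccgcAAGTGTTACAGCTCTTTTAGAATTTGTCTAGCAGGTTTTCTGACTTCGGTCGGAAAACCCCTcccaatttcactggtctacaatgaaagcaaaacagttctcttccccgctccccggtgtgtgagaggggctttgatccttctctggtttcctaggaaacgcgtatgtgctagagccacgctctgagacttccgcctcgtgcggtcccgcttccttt

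Rnu7 spans 62 bp and ends 156 bases before the start of Grcc10. The Naive summit lay between both genes, 52 bases before that start and 104 bp from Rnu7. The EpiLC summit lay 44 bases past the start and 200 bp from Rnu7. Which of the neighbours a peak belongs to cannot be told apart at fragments of around 500 bp.

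The mature miRNAs printed next belong to the clusters of pluripotent cells with a Naive peak and to the Mir141 and Mir200c pair, which had a peak in EpiLC. Capitals mark the seed, bases 2 to 8, by which a miRNA finds its targets. Of the 75 miRNA genes with a peak in either list, 67 matched a mature sequence in the RefSeq table (GRCm38.p6).

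mmu-miR-291a-3p: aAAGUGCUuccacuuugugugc
mmu-miR-294-3p: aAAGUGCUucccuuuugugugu
mmu-miR-295-3p: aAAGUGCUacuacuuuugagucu
mmu-miR-302b-3p: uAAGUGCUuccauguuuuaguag
mmu-miR-302d-3p: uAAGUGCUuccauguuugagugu
mmu-miR-291b-3p: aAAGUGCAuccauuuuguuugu
mmu-miR-290a-3p: aAAGUGCCgccuaguuuuaagccc
mmu-miR-367-3p: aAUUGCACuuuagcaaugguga
mmu-miR-200c-3p: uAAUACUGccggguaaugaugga
mmu-miR-141-3p: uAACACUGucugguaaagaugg

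The first 5 share the seed AAGUGCU across the miR-290 and miR-302 clusters, which lie on different chromosomes, and this was the seed with the most mature sequences among the members. The next pair differs from it in the last seed base.

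Small RNA genes with a peak were few. A summit lay within 1 kb of 232 of the 4067 small RNA genes in Naive (5.7%) and of 148 in EpiLC (3.64%), of 113 in both lists and of 267 in either. By the biotype of the nearest gene, the Naive peaks comprised 53 at snRNA, 70 at snoRNA, 20 at tRNA, 15 at rRNA and 59 at miRNA genes. The EpiLC peaks comprised 44, 61, 3, 7 and 18. The snRNA and snoRNA classes thus held most EpiLC members. The Naive list is the longer one, and as a share of each list the miRNA members were 0.486% in Naive and 0.515% in EpiLC, and the tRNA members 0.165% and 0.0859%.

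Members were shared between the lists more often than peaks in general. Of the Naive members 99 overlapped an EpiLC peak by at least 1 bp (45.6%, exact 95% interval 38.9 to 52.5), against 13.7% of all Naive peaks. Of the EpiLC members 108 overlapped a Naive peak (81.2%, 73.5 to 87.5), against 48.3% of all EpiLC peaks. Other peaks near ends of protein-coding genes were shared at 17.9% in Naive and 65.5% in EpiLC. The difference between these shares was not tested. Of the 25 EpiLC members with no Naive partner, 14 lay in a single host gene, Snhg14.

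Spliceosomal and related snRNA genes had the highest median fold of the 5 biotypes in both lists, although the highest single fold among the members of each list was at a miRNA gene. The 32 stand-alone Naive peaks had a median fold of 7.82 and the 26 stand-alone EpiLC peaks a median of 3.79, against 4.60 and 3.31 over all members. All 26 EpiLC peaks overlapped a Naive peak, and 25 of the 32 Naive peaks overlapped an EpiLC peak. Their summits lay close to the genes, and the median distance was 93 bp in Naive and 65.5 bp in EpiLC, with 84.4% and 96.2% within 150 bp. Few summits lay inside a gene, 2 in each list. The genes are shorter than the fragments of around 500 bp, so a position inside or beside the transcribed stretch cannot be told apart. The plot of summit distances shows how narrow this class was beside the other biotypes.

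**Figure D1:**
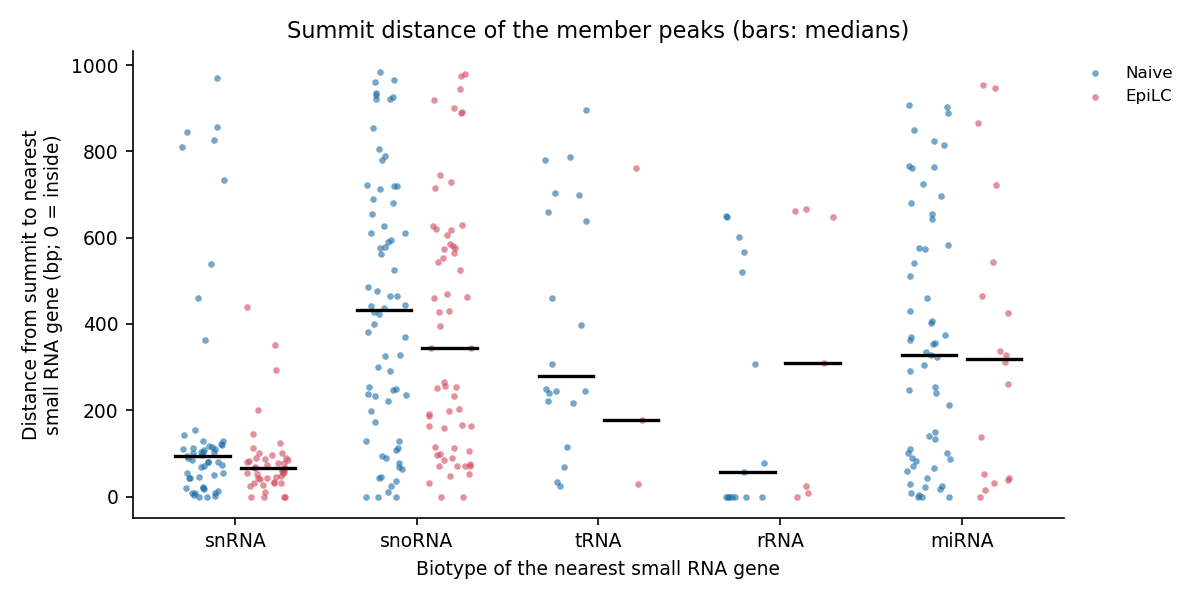
Distance in bp from each member summit to its nearest small RNA gene, by biotype, for the 217 Naive and 133 EpiLC members, with bars at the medians. The snRNA peaks sit at medians of 94 bp in Naive and 65.5 bp in EpiLC, while snoRNA peaks spread over the whole window with medians of 432.5 and 344 bp.

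The highest stand-alone fold was at Gm24950, an snRNA gene of 191 bp on chromosome 11. The peak at chr11:101641238-101642365 had a Naive fold of 14.6 (95% counting interval 11.8 to 17.8), and it held 2 EpiLC peaks, with folds of 4.34 (3.66 to 5.10) and 2.55 (2.03 to 3.17). Rnu2-10, a gene of U2 snRNA that pairs with the intron branch point, lies on the same chromosome and had folds of 9.37 (6.93 to 12.4) and 3.45 (2.75 to 4.28). At Gm26316 on that chromosome the folds were 8.19 (5.91 to 11.1) and 4.76 (3.76 to 5.94). For the fold over the local background, the Naive interval lay wholly above the EpiLC one at Gm24950 and Rnu2-10, while the intervals at Gm26316 just overlapped. Pileups over the genome-wide background, a measure described below, were closer. They were 9.59 in Naive and 9.72 in EpiLC at Rnu2-10, and 8.19 and 9.13 at Gm26316. At Gm24950 they were 19.2 in Naive and 17.2 for the stronger EpiLC peak.

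Genes of the length of U1 snRNA, which recognises the 5′ splice site, stood in groups. On chromosome 12, 4 stand-alone genes of 164 bp had Naive folds of 10.4 (Gm22317), 10.2 (Gm22634), 9.38 (LOC115488077) and 8.78 (LOC115488065). Their EpiLC folds were 4.70, 4.87, 4.68 and 5.28. On chromosome 3, Rnu1b1 had a Naive fold of 8.17 (5.90 to 11.1) and an EpiLC fold of 4.32 (3.40 to 5.41), Gm22614 had 9.06 and 5.47, and Gm24830 had 10.8 and 2.91. Rnu1b2 went the other way, from 3.19 (2.20 to 4.48) for Naive to 3.89 (3.06 to 4.87) for EpiLC, and these intervals overlap. It was the only pair among the 42 snRNA pairs with the higher fold in EpiLC.

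The remaining named stand-alone genes cover other functions. Rnu7 had folds of 9.60 (7.26 to 12.5) and 3.81 (2.94 to 4.86). Rnu11, a component of the minor spliceosome that removes a rare class of introns, had 8.88 and 2.94, and Rnu12 of the same machine had 7.34 in Naive with no EpiLC peak. Rnu3a, whose U3 RNA acts in ribosomal RNA processing and carries the snRNA biotype in the table, had 6.34 and 3.09, with a further Naive peak of 4.94 at 857 bp. Among the snoRNA genes, Snord118, the U8 gene needed for large-subunit rRNA, had 6.58 and 3.40, while Snord13 had 8.19 in Naive only.

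Hosted snRNA genes behaved much like the stand-alone ones in position. The 21 Naive peaks had a median fold of 6.59 at a median distance of 94 bp, and the 18 EpiLC peaks 3.57 at 67 bp. The host start was nearer than the snRNA gene in 2 of 15 Naive peaks and in 0 of 15 EpiLC peaks whose host had an annotated start. Inside Tex14, a gene of germ cell bridges, Rnu1a1 had folds of 10.6 (7.95 to 13.8) and 2.39, Rnu3b2 9.79 and 3.84, and Rnu3b4 8.74 and 4.02. LOC115487916, inside Rdm1, had the highest hosted snRNA fold in EpiLC, 6.21 (4.91 to 7.76), beside Naive peaks of 7.19 and 4.78.

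The share of snRNA genes with a peak differed widely by gene length. The table gives most copies only a Gm or LOC symbol, so each snRNA gene was placed with the named gene nearest to it in length, at most 5 bp away. All 5 genes at the lengths of Rnu3, the U3 genes, had a peak in both lists. At the length of Rnu2, 10 of 31 genes had one in each list (32.3%). At the length of Rnu5, a core spliceosomal RNA, 7 of 15 genes had one in Naive and 5 in EpiLC. At the lengths of Rnu1, 15 of 109 genes had one in Naive (13.8%) and 16 in EpiLC (14.7%).

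These shares depend on how far a class reaches. Among the 54 genes of exactly a Rnu1 length the same counts made 27.8% and 29.6%, and among the 9 genes of exactly the length of Rnu5 they made 77.8% and 55.6%. Rnu2 differed, since 1 of 2 genes of exactly its length had a peak in each list and the other 9 genes with a peak were all a few bp longer. The class rule was set after peaks by length had been seen, so the shares are a description only.

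The remaining classes held fewer genes with a peak. The class of Rnu6 and Rnu11 has 719 genes, of which 9 had a Naive and 3 an EpiLC peak. Among the 385 genes of Rnu6's own length the counts were 3 and 1, and Rnu6 itself had none. At the length of Rnu7 the counts were 2 and 1 of 72 genes, all among the 20 genes of exactly its length (10% and 5%). At the length of Rnu12, 1 of 4 genes, Rnu12 itself, had a Naive peak. No peak lay at Rn7sk, the 7SK RNA gene, and 2 of the 48 genes of other lengths had one in each list (4.17%). These shares stand beside 5.7% and 3.64% over all small RNA genes. Many snRNA loci in a mammalian genome are silent copies, and which of these are transcribed is not stated in the table.

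**Figure D2:**
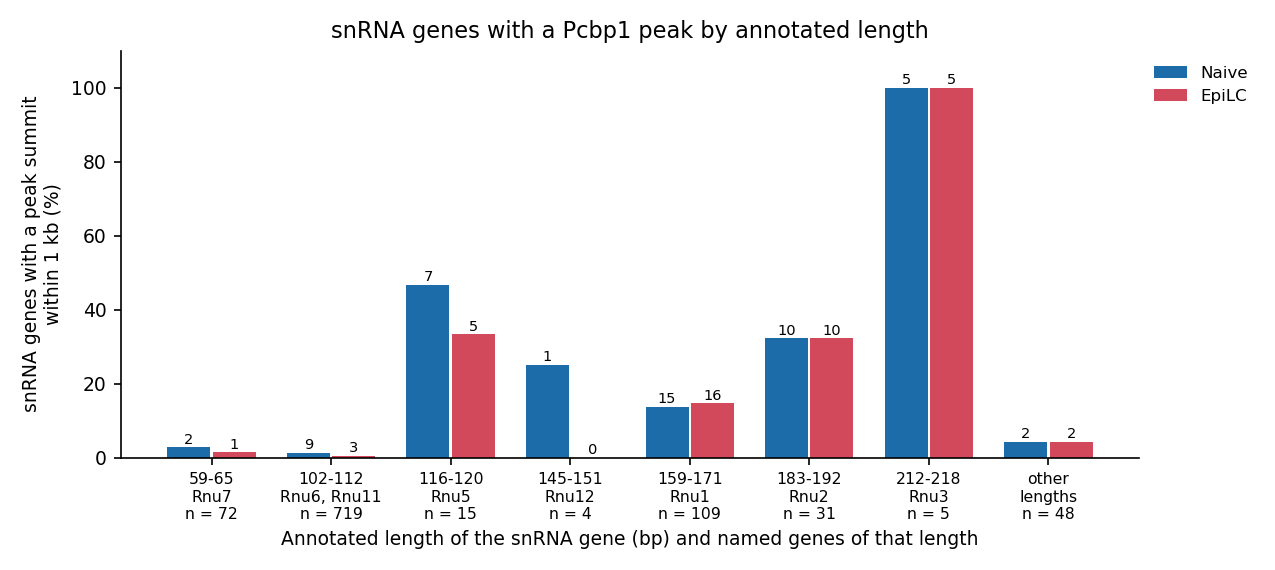
Percentage of snRNA genes with a peak summit within 1 kb, by annotated gene length in bp, for Naive and EpiLC, with the number of genes with a peak above each bar and the class size below. Bars reach 100% at Rnu3 lengths and stay at or below 2.78% at the lengths of Rnu7 and of Rnu6 and Rnu11. The class of the single gene Rn7sk is not drawn.

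Hosted snoRNA genes outside Snhg14 had 62 Naive peaks with a median fold of 4.89 and 44 EpiLC peaks with a median of 3.14, and 43 of the 44 EpiLC peaks overlapped a Naive peak. These peaks lay near the host's start about as often as near the snoRNA. Where the RefSeq table gave a host start, the median summit was 242 bases into the host in Naive (48 peaks) and 279 in EpiLC (36 peaks). The host start was nearer than the snoRNA for 26 of 48 and 16 of 36 peaks. The summit lay past the host start in 43 of 48 and 35 of 36.

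Since a hosted snoRNA lies inside its host, the membership rule itself favours summits past the start. Within 1 kb of an annotated start, 86.8% of these Naive and 96.9% of these EpiLC summits lay past it. Of all other peaks near a start 59.2% and 55.9% did, with median positions of 78 and 70 bases past it.

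**Figure D3:**
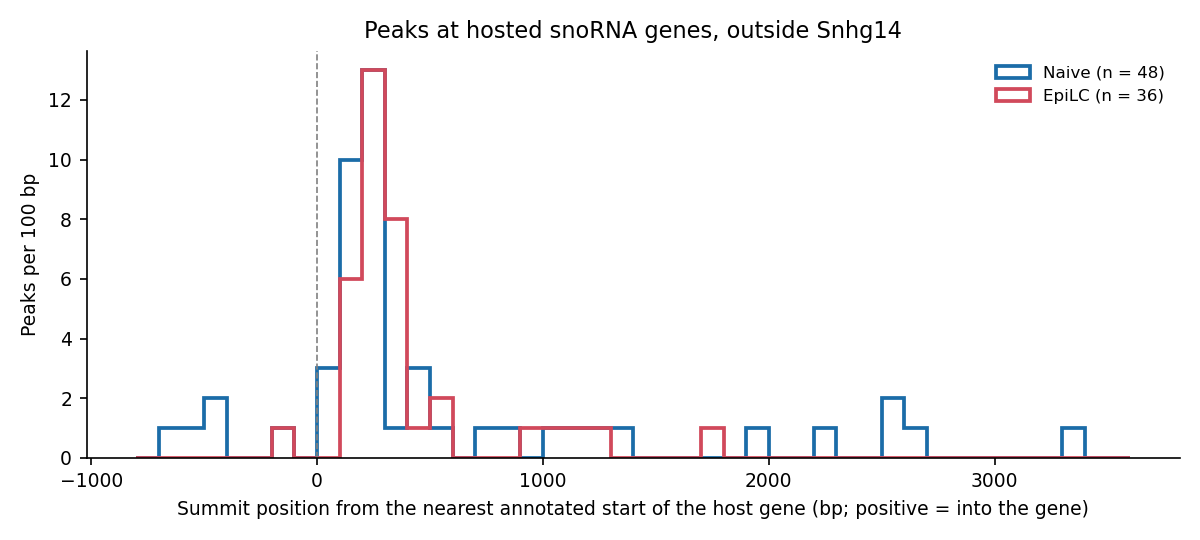
Number of peaks per 100 bp by the position of the summit from the nearest annotated start of the host gene, for hosted snoRNA members outside Snhg14, 48 in Naive and 36 in EpiLC. The peaks crowd close past the start, with medians of 242 and 279 bases past the start.

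Many hosts were ribosomal protein genes. With Rack1, another protein of the small ribosomal subunit, counted among them, these hosts had 26 Naive peaks with a median fold of 4.60 and 20 EpiLC peaks with a median of 3.13, and all 20 were shared. Hosts that are lncRNAs, with Snhg14 left out, had 26 and 18 peaks, with medians of 5.07 and 3.09. All 18 of these EpiLC peaks were shared, which was not so in Snhg14, described below. At Rps12, a small-subunit protein gene, the peak nearest to LOC115487513 had folds of 8.33 (6.13 to 11.1) and 3.96 (3.09 to 5.0). At Snhg12 the peak nearest to Snora16a had 7.79 (5.57 to 10.6) and 3.58. At Zfas1 the folds were 7.55 (5.37 to 10.3) and 3.29, and at Atp5b, a subunit gene of the mitochondrial ATP synthase that hosts Snord59a, 7.59 and 3.32.

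Other hosts had lower Naive folds. Gas5, a growth-arrest lncRNA that carries a row of snoRNAs, had a Naive fold of 5.05 and an EpiLC fold of 4.19 (3.29 to 5.26) at the peak nearest to LOC115487643. Snhg7, at Snora17, had 5.09 and 4.0 (3.04 to 5.16). The lncRNA 1110038B12Rik had 4.92 and 3.87 (3.02 to 4.88). Nop56, which encodes a core protein of box C/D snoRNPs and hosts Snord110, had 5.67 and 3.78 (2.97 to 4.76).

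Among snoRNA hosts, the promoters of the 3 with the highest lower fold whose annotated start lay inside the peak in both lists are shown as the 250 bases before that start (RefSeq, GRCm38.p6). Capitals mark runs of 4 or more C, or of 4 or more G, which are C runs on the other strand. The stretches are chr1:161034916-161035165 on the plus strand for Gas5, chr10:23787210-23787459 on the minus strand for Rps12, and chr17:34952469-34952718 on the minus strand for 1110038B12Rik. None of them holds a summit, since all summits lay past the start. In Naive and EpiLC they lay 186 and 176 bases past it at Gas5, 142 and 322 at Rps12, and 172 and 230 at 1110038B12Rik. The Gas5 peaks began at 161035162 and 161035163, so nearly all of that stretch, with its marked runs, lies outside them.

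Gas5: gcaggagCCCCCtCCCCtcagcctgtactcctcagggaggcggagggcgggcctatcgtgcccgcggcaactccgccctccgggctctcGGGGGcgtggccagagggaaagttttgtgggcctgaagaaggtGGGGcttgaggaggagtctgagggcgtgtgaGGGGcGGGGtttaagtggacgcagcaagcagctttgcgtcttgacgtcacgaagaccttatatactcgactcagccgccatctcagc
Rps12: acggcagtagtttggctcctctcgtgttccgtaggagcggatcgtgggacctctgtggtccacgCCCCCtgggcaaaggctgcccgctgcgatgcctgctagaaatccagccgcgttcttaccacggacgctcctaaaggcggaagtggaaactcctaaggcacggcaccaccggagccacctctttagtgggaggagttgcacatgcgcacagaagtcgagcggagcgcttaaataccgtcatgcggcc
1110038B12Rik: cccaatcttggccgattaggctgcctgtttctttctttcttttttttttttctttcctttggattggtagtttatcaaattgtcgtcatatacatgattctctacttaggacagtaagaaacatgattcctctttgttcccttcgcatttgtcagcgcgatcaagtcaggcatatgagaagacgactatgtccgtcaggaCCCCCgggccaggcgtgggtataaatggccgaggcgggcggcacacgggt

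The C run CCCC was common everywhere. On either strand it occurred in 34 of the 37 windows (91.9%, exact 95% interval 78.1 to 98.3) around starts of snoRNA hosts with a summit within 1 kb, and in 86.4% of the 32817 promoter windows of 300 bases in the table. TATAAA was in 10 of the 37 windows (27.0%, 13.8 to 44.1) against 13.6% of all, and GTTCNANNC, part of the tRNA B box, in 6 (16.2%) against 9.33%. The octamer ATTTGCAT and ACTACAA, part of the Zfp143 site, were in 0 of the 37, which allows a share of up to 9.49% for each, against 1.74% and 3.24% of all windows. Median GC content was 60.3% in these windows and 52.7% in all, and 1 gene can have several starts. The windows were placed by the annotated starts and not by the summits, so these shares do not describe the sequence under the summits.

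Snhg14 was the place where EpiLC had peaks and Naive had few. This imprinted host gene of the Prader-Willi and Angelman region spans chr7:59272737-60450177 and holds 206 snoRNA genes of 46 to 94 bp, in tandem arrays that include the Snord116 family. The EpiLC list had 16 member peaks there, near 17 snoRNA genes, with folds from 2.46 to 6.89 and a median of 3.64. In Naive there were 2 member peaks, and both overlapped EpiLC peaks. Including non-members, 19 EpiLC and 2 Naive summits lay in the gene.

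The highest EpiLC folds there were 6.89 (5.64 to 8.33) near Gm26200, 6.52 (4.93 to 8.47) near Gm25742, 5.27 (4.03 to 6.79) near Gm22511, 5.25 near Gm26332 and 5.0 near Gm25471, all without a Naive peak. Of the named arrays, Snord116l6 had 3.31 and Snord116l1 had 3.83, in EpiLC only. At the shared peaks the folds were close, at 3.35 (2.42 to 4.51) for the Naive and 3.46 (2.74 to 4.31) for the EpiLC peak near Gm24219, and 2.59 and 2.46 near Gm22417. The EpiLC members lay between 555661 and 982126 bases past the nearest annotated start of Snhg14. The membership rule holds each summit within 1 kb of a small RNA gene. This distance therefore follows from where the snoRNA genes lie in this long host, and it cannot be compared with that in other hosts. The local background at the EpiLC members had a median of 2.75 times the genome-wide value and reached 4.60 times. The part of repeated sequence in these calls was not tested.

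**Figure D4:**
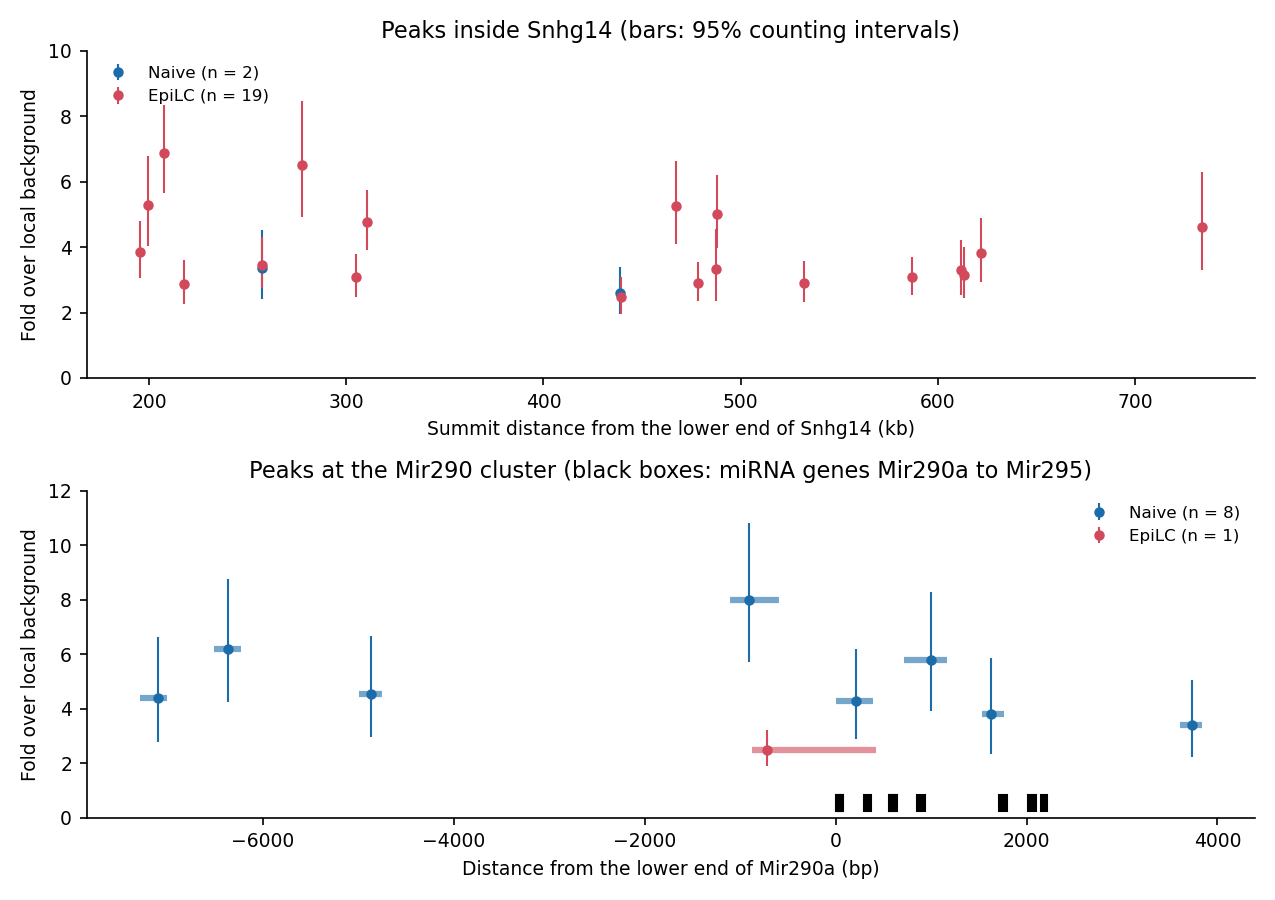
Upper panel, fold of every peak inside Snhg14 by distance in kb from the lower end of the gene, 19 in EpiLC and 2 in Naive. Lower panel, fold of the peaks around the Mir290 cluster by distance in bp from the lower end of Mir290a, 8 in Naive and 1 in EpiLC, with horizontal bars for peak extent and black boxes for the miRNA genes. Vertical bars are 95% counting intervals, and the EpiLC peaks in Snhg14 span 538 kb of the 1177 kb gene.

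The miRNA members, 59 in Naive and 18 in EpiLC, made up similar shares of the lists, 0.486% and 0.515%. The miR-290 cluster on chromosome 7 had all 9 of its genes within 1 kb of a Naive summit and 2, Mir290a and Mir290b, within 1 kb of an EpiLC summit. Its 4 Naive member peaks had folds of 7.97 (5.73 to 10.8), 4.29 (2.88 to 6.18), 5.79 (3.92 to 8.29) and 3.79 (2.33 to 5.87), in order along the cluster. The single EpiLC peak, chr7:3217754-3219049, had a fold of 2.50 (1.90 to 3.23) and overlapped the first 2 of them. Another 4 Naive peaks within 10 kb were no members, with folds from 3.42 to 6.19.

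The miR-302 cluster, inside Larp7, had 1 Naive peak with a fold of 4.80 within 1 kb of all 5 genes, Mir302a to Mir302d and Mir367, and no EpiLC peak. Of the 11 miRNA clusters, families and single genes chosen for reading, these 2 clusters had a Naive peak. The other 9, with 34 genes that include Mir17hg, the let-7 genes, Mir145a and Mir34a, had none in either list. Over all 1228 miRNA genes, a summit lay within 1 kb of 67 in Naive (5.46%) and of 22 in EpiLC (1.79%). With shares this low, the lack of a peak at 34 genes does not set them apart from other miRNA genes.

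Several miRNA genes had EpiLC peaks that no Naive peak overlapped, but such peaks were not particular to miRNA genes. Of the 18 EpiLC miRNA members 12 overlapped a Naive peak (66.7%, 41.0 to 86.7), against 48.3% of all EpiLC peaks. Mir200c and its neighbour Mir141, miRNAs of epithelial character, had a fold of 6.23 (4.95 to 7.74) at chr6:124718756-124719210, the highest stand-alone EpiLC fold. Mir124a-1 and Mir3078, in the host Mir124a-1hg, had 6.69 (5.23 to 8.44), and Mir124a-2, in Mir124-2hg, had 3.08. Mir124 genes encode the main neuronal miRNA. Mir6917 (3.74) and Mir7215 (4.09) were the other hosted genes of this kind. Mir688 was the other stand-alone one, with an EpiLC fold of 2.69, and it had a separate Naive peak of 4.70 within 1 kb.

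Among the shared miRNA genes, Mir1894, inside Ppp1r10, a regulator of protein phosphatase 1 in the nucleus, had 5.13 in Naive and 8.81 (7.40 to 10.4) in EpiLC. It was the only one of 12 miRNA pairs with the higher fold in EpiLC. Mir12191, inside Fam53c, had the highest fold of all members, 15.7 (12.6 to 19.3) in Naive, beside 2 EpiLC peaks of 4.51 and 2.35. Mir762 in Bcl7c had 8.30 and 3.22, Mir135b in Lemd1 7.80 and 4.69 (3.68 to 5.90), Mir3091 in the ribosomal protein gene Rps21 6.81 and 2.54, and the stand-alone Mir484 6.59 and 2.87. Mir132 and Mir212, which share the seed AACAGUC, had 4.80 in Naive only.

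Peaks at genes of nuclear tRNA and 5S rRNA, read by RNA polymerase III, had median folds below those of all peaks in both lists. A summit lay within 1 kb of 22 of 408 nuclear tRNA genes in Naive (5.39%) and of 5 in EpiLC (1.23%). Over all small RNA genes the shares were 5.7% and 3.64%. The 18 Naive peaks at nuclear tRNA genes had a median fold of 3.99 (lowest 2.52, highest 5.54), against 4.18 at hosted miRNA genes and 4.43 over all Naive peaks. Their median distance was 279 bp, and no summit lay inside a tRNA gene. The 3 EpiLC peaks, at n-TMcat9 (2.59, beside 5.54 in Naive), n-TQttg6 (2.58) and n-TEctc5 (2.01), were all hosted. The stand-alone tRNA genes had 11 Naive and no EpiLC peaks, the highest at n-TTagt9 with 5.40.

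Peaks in the array of 5S-type rRNA genes on chromosome 8 numbered 11 in Naive and 6 in EpiLC, with folds from 2.05 to 3.98 and from 1.96 to 3.77. The median folds were 3.01 and 2.68. A summit lay within 1 kb of 12 of the 48 genes in Naive (25%) and of 7 in EpiLC (14.6%), above the shares of all small RNA genes. The Naive local background there had a median of 4.14 times the genome-wide value. The highest EpiLC fold, 3.77 (2.89 to 4.83) near n-R5s115, stood beside 3.65 in Naive. A further 5 Naive peaks lay in the mitochondrial genome, at its rRNA and tRNA genes, with folds from 1.52 to 2.03 over a background of 27.8 to 36.6 times the genome-wide value. EpiLC had none there. The highest pileup of any member, 440 fragments in Naive at Mir101c, likewise stood on a background of 47.1 times the genome-wide value, with a fold of 2.32. Rn4.5s, a 4.5S RNA gene, had 3.73 and 2.21. Among structural RNA genes outside the chosen biotypes, RNase P, RNase MRP, Y RNA and telomerase RNA genes had no peak, while 2 of 3 scRNA genes had one in Naive (Rn7s1 with 4.36 and Rn7s2 with 3.20) and 1 in EpiLC (Rn7s1 with 2.65).

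Folds of most shared members were lower in EpiLC, while their pileups, scaled to the library, differed less. Over the 108 EpiLC members with a Naive partner the median log2 ratio of EpiLC to Naive fold was -0.96, and 5 pairs had the higher fold in EpiLC, against a median of -0.58 and 14.4% over all 1689 pairs. It was -1.07 for the 42 snRNA pairs, -0.91 for the 46 snoRNA pairs, -1.28 for the 12 miRNA pairs and -0.11 for the 6 rRNA pairs. A Naive peak that overlapped several EpiLC peaks entered a pair with each of them, as at Mir12191 and Gm24950, so not all pairs are separate. When the genome-wide background of the library took the place of the local one, as pileup plus 1 over background plus 1, the median was -0.092 over the members and -0.016 over all 1689 pairs. It was 0.082 over the snRNA pairs, -0.14 over the snoRNA pairs and -0.38 over the miRNA pairs. By this measure the EpiLC value was the higher one in 47 of the 108 member pairs, comprising 28 of 42 snRNA, 15 of 46 snoRNA, 1 of 12 miRNA, 1 of 6 rRNA and 2 of 2 tRNA pairs.

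Both measures use the same pileup and differ in the background alone. At the snRNA pairs its median was 2.63 times the genome-wide value in EpiLC and 1.08 times in Naive. At Gm24830 the summit pileups were 102 fragments in Naive and 173 in EpiLC. Pileup plus 1 over genome-wide background plus 1 was 20.6 in both libraries, while the local backgrounds were 2.13 and 7.92 times the genome-wide one. The folds there were 10.8 and 2.91. Mir1894 was higher in EpiLC by both measures, with log2 ratios of 0.78 for the fold and 1.18 for the pileup. Mir12191 was lower by both, at -1.80 and -0.54 for its stronger EpiLC peak. The plot of both measures shows most pairs below the diagonal by fold and around it by pileup.

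**Figure D5:**
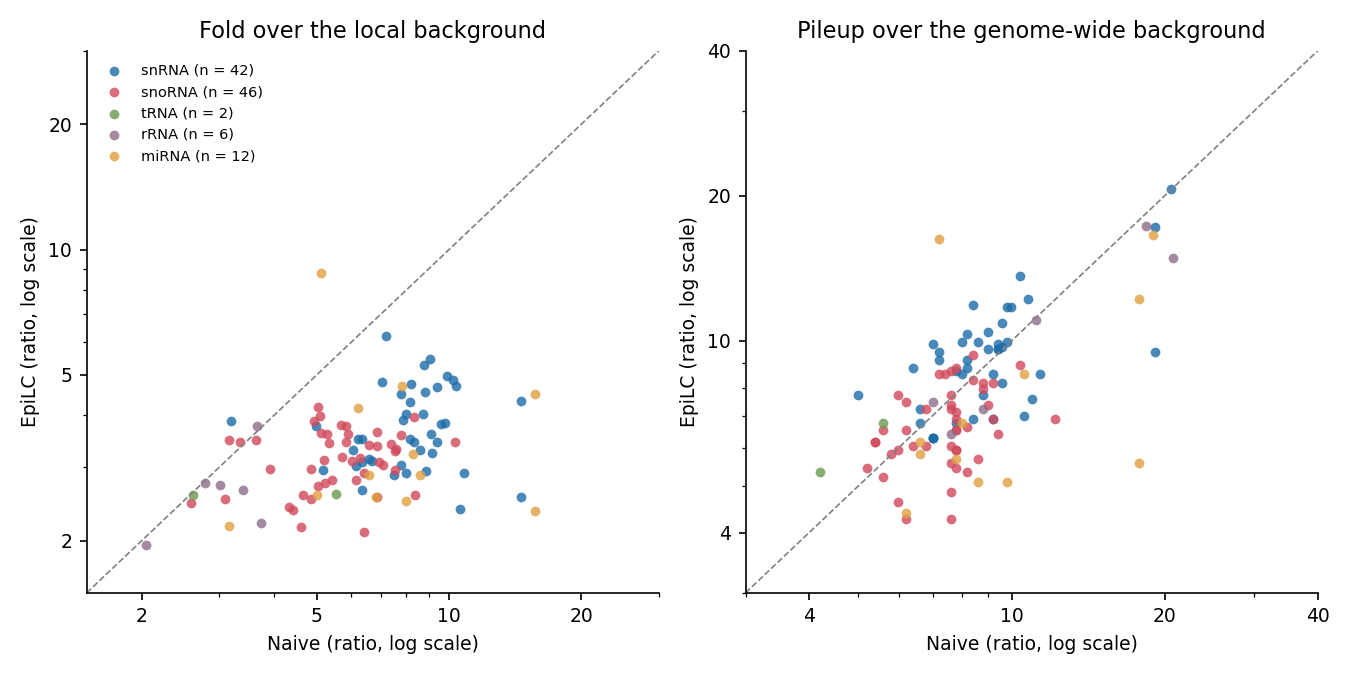
EpiLC against Naive for the 108 pairs of overlapping member peaks, by biotype, on log axes with the line of equality. Left, fold over the local background, where 5 pairs lie above the line. Right, pileup plus 1 over the genome-wide background plus 1 of each library, where 47 pairs lie above it.

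Genes of the proteins that make and use these RNAs were also read for peaks within 1 kb of a gene end, which were listed in Naive at 19.3%, and in EpiLC at 5.61%, of the 21887 protein-coding genes. Of the 15 matched genes for snRNA transcription 8 had one in Naive and 3 in EpiLC. These 3 were Hexim1, an inhibitor of P-TEFb bound to 7SK RNA (15.1 and 18.6), Zfp143, an activator of snRNA genes (31.2 and 11.7), and Sp1 (6.95 and 4.34). Of 14 Integrator genes, whose complex cuts snRNA 3′ ends, 10 and 4 had one, with Ints10 at 5.60 and 3.75, Ints9 at 6.18 and 2.90 and Ints12 at 4.89 and 2.82. Of 23 genes for RNA polymerase III and its factors 15 and 7 had one, led by Polr3b (6.39 and 4.49), Gtf3c3 (5.18 and 4.14) and Polr3f (6.94 and 3.77).

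Of the 15 matched snoRNP genes 10 had a peak in Naive and 2 in EpiLC, Nop56 and Nhp2 (4.41 and 2.83). Of 16 genes for snRNP assembly 10 and 3 had one, Snrnp70 of the U1 particle at 6.79 and 3.46, Snrpa at 7.88 and 2.72 and Gemin4 of the SMN complex at 4.09 and 2.27. Of 12 genes for miRNA processing 3 and 2 had one, and Xpo5, the exporter of precursor miRNAs, was the gene with both (4.15 and 3.22). The shares were not tested.

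Members at the edge of the window had ordinary folds. Just inside 1 kb lay LOC115489078 (966 bp, fold 4.32), Gm24537 (970 bp, 4.56) and Snord35b (984 bp, 5.83) in Naive, and Mir1949 (953 bp, 2.88), Snord59a (974 bp, 3.32) and Snord35b (980 bp, 3.78) in EpiLC. Just outside lay LOC115489589 (1015 bp, 4.11), Gm22513 (1020 bp, 9.17) and Snora52 (1031 bp, 6.95) in Naive, and Snora68 (1007 bp, 2.84), Mir5615-2 (1032 bp, 3.48) and Gm25579 (1033 bp, 3.04) in EpiLC. Copies of snRNA, tRNA, 5S rRNA and Snhg14 snoRNA genes are near-identical, and the treatment of reads that match several copies was not stated in the labels, so the assignment of a peak to 1 copy is uncertain.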

How the data were processed

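Pcbp1 ChIP and input were sequenced once each in Naive cells and EpiLC, with 1 deposited peak list for either condition. Per the submitters' processing notes, MACS2, Bowtie2, fastp and Picard were used with the builds GRCm38 and mm10. Their versions and roles, and the caller's control, are not given here. The fold is the ratio the authors deposited, the −log10 p-values and −log10 q-values are the authors' too, with a minimum −log10 q of 2.02 in either list. A further deposited column gives the summit's distance from the peak start.

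Genes came from a RefSeq table without strand for small RNA genes, and sequences from RefSeq tables of GRCm38.p6. No read totals were at hand. The deposited fold was taken to be the pileup plus 1 divided by the background plus 1, with a Poisson tail for the p-value. A whole pileup met the deposited p within 0.001 for 100% of the peaks of both lists, and the lowest background of a list was its genome-wide value. Poisson intervals of folds and exact Clopper-Pearson intervals of shares cover counting error only. In simulated data the script returned all 1000 pileups, all 300 members and all 300 overlaps.

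Each peak took the biotype and host of its nearest small RNA gene. A pair is an EpiLC member and the overlapping Naive peak with the highest fold, so the same Naive peak can stand in several pairs. Named were the stand-alone members among the 20 highest folds of a list (from which the text gives examples), per biotype the 5 highest hosted folds and the 5 shared ones with the highest lower fold, the listed miRNA clusters, and up to 3 machinery genes per list by the lower fold. The snRNA length classes (nearest named gene within 5 bp) replaced narrower ones that had been drawn with the peaks in view. Rnu12, Rnu3a, Rnu1b2, Mir484, Mir132, Mir212, Mir101c and the genes with EpiLC-only miRNA peaks were added after their values were seen. The members and lists were chosen with earlier results of these data known. The scripts ran in Python 3.11.15 with scipy 1.17.1, pandas 2.3.3, numpy 2.4.6 and matplotlib 3.10.9.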

Additional observations from a re-analysis of the deposited data

How the results depend on the processing

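Of 61 alternatives, 32 stayed within the limit set for each value (1.5 times for a count, the 95% interval for a share or median). With a window of 3000 bp the Naive members rose to 389 (140 stand-alone, 447 genes, 36.5% shared) and the genes with an EpiLC peak to 301. With a fold of at least 5 there were 91 Naive members (32 stand-alone, 106 genes, median fold 6.70, 4.40% shared) and 11 EpiLC members (3 stand-alone, 14 genes, median 6.21, 36.4% shared), a threshold few EpiLC peaks can pass. A −log10 q of at least 5 moved the Naive median fold to 5.08. With the Naive list shortened to the length of the EpiLC list by −log10 q, 94 Naive members were left (36 stand-alone, 113 genes, median 6.59, 78.7% shared), and 65.4% of EpiLC members were shared, against 23.7% and 24.8% of all peaks. Summits within 200 bp in place of an overlap gave 70.7% of EpiLC members. The stand-alone counts depended on what a host is: 55 in Naive with hosts widened by 500 bp, and 132 in Naive and 81 in EpiLC with protein-coding hosts alone. With the genome-wide background, an alternative chosen after seeing the data, the median log2 ratio over the member pairs moved from -0.96 to -0.092, and that over the snRNA pairs turned from -1.07 to 0.082, and that over the snoRNA pairs from -0.91 to -0.14. No paired analysis was possible because each condition had 1 ChIP library. Depth limits single folds: the median pileup of all Naive peaks was 24 fragments.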
